A study of Homo sapiens with 30 samples.

Results

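The comparison described here sets cells carrying an shRNA (short hairpin RNA) against CHK1 beside cells carrying one against CHK2. It uses the 6 arrays labelled shCHK1 and the 6 labelled shCHK2, which are 12 of the 30 arrays of the series and were taken by their labels. The cells are MCF-10A, an established non-transformed human breast epithelial line. According to the labels all of them overexpressed cyclin E, carried a stable shRNA and were profiled after 48 hours of culture on Illumina bead arrays, so cyclin E and a hairpin are shared by shCHK1, shCHK2 and the other groups (shATM, shATR and shControl). Each shRNA was measured in 2 sets of 3 arrays, which gives 3 shCHK1 against 3 shCHK2 arrays within set 1 and again within set 2. The labels do not give what separates the sets, the hairpin sequences, how many clones a line holds, or whether replicates were separate cultures, so errors and p-values cover only the spread between arrays.

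CHK1 and CHK2 are the effector kinases of the DNA damage and replication checkpoints. ATR activates CHK1 when replication forks stall, and ATM activates CHK2 when DNA breaks. Both kinases act on CDC25 phosphatases and thereby restrain cyclin-dependent kinases, and CHK2 also phosphorylates p53. CHK1 is needed in every S phase to hold back origin firing and mitotic entry, and excess cyclin E raises the load on that control.

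On the 12 arrays, 19104 to 21732 probes were detected and replicates correlated at r of at least 0.991 across genes. The first principal component of the 12 arrays held 59.7% of the variance and separated set 1 from set 2. The second held 9.28% and separated shCHK1 from shCHK2 in set 1. On it, replicate 3 of shCHK2 set 1, the array with the most detected probes, lay at 27.1, beside 7.4 and 9.5 for its replicates. The main counts and the list counts that moved most are given without it too. All 7 markers of breast epithelium that had a named probe were detected on 6 of 6 shCHK1 and 6 of 6 shCHK2 arrays.

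Between shCHK1 and shCHK2, both targeted transcripts went with their labels in both sets. CHEK1, the gene of CHK1, stood at log2 intensities of 8.84, 8.92 and 8.76 on the shCHK1 arrays of set 1, against 10.09, 10.23 and 9.98 on the shCHK2 arrays. In set 2 its values were 8.59, 8.57 and 8.72 in shCHK1, against 10.16, 10.25 and 10.16 in shCHK2. All shCHK1 arrays lay below all shCHK2 arrays, and CHEK1 was 2.39-fold lower in set 1 (log2 difference -1.26, SE 0.11, n = 3 and 3, adjusted p = 8.3e-09) and 2.95-fold lower in set 2 (log2 difference -1.56, SE 0.11, adjusted p = 7e-10). The level in shCHK2 was close to that of shATM and shATR: shCHK1 lay -1.16 (set 1) and -1.37 (set 2) from the mean of those groups on the log2 scale, and shCHK2 0.10 and 0.19 (adjusted p = 0.52 and 0.25). The shControl arrays averaged 9.22 in set 1 and 9.81 in set 2, between shCHK1 and shCHK2. Beside shControl, CHEK1 differed in shCHK1 by -0.38 in set 1 (adjusted p = 0.0039) and -1.18 in set 2 (adjusted p = 5.1e-10), and in shCHK2 by 0.88 in set 1 (adjusted p = 9.9e-08) and 0.38 in set 2 (adjusted p = 0.0033). The larger part of the set 1 contrast in CHEK1 thus lay between shCHK2 and shControl, and the larger part of the set 2 contrast between shCHK1 and shControl. In RNA from whole cultures, fewer expressing cells and less RNA per cell cannot be told apart.

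CHEK2, the gene of CHK2, was higher in shCHK1 by 1.5-fold in set 1 (log2 difference 0.58, SE 0.13, adjusted p = 0.0042) and 1.65-fold in set 2 (log2 difference 0.72, SE 0.13, adjusted p = 0.001). Its set 1 values were 7.59, 7.66 and 7.68 in shCHK1, against 6.87, 7.04 and 7.27 in shCHK2. In set 2 they were 8.17, 8 and 8.04 in shCHK1, against 7.57, 7.18 and 7.30 in shCHK2. No array of one group reached into the other. A second CHEK2 probe gave 0.84 in set 1 and 0.64 in set 2. Beside the mean of shATM and shATR, shCHK2 differed by -0.77 in set 2 (adjusted p = 3.4e-05) and by -0.24 in set 1 (adjusted p = 0.15), while shCHK1 differed by -0.05 in set 2 (adjusted p = 0.87) and by 0.34 in set 1 (adjusted p = 0.045). Beside shControl, CHEK2 differed in shCHK2 by -0.55 in set 1 (adjusted p = 6.7e-04) and -0.15 in set 2 (adjusted p = 0.34). The lower CHEK2 of shCHK2 thus passed the test against shControl in set 1 and against shATM and shATR in set 2. In shCHK1, CHEK2 stood 0.03 from shControl in set 1 (adjusted p = 0.85) and 0.57 above it in set 2 (adjusted p = 3.8e-04). CCNE1, the gene of cyclin E1, differed between shCHK1 and shCHK2 by 0.10 in set 1 (adjusted p = 0.75) and 0.33 in set 2 (adjusted p = 0.23), so it was not called. Beside shControl, CCNE1 differed in shCHK1 by -1.62 in set 1 (limma, adjusted p = 7.8e-11) and -1.94 in set 2 (adjusted p = 2.3e-12). In shCHK2 it differed from shControl by -1.72 in set 1 (adjusted p = 2.4e-11) and -2.27 in set 2 (adjusted p = 8.7e-14). Every comparison with shControl given here thus also spans a difference in CCNE1 signal. CCNE1 was not the only such gene, and others lay further from shControl. CCND2 differed from shControl by 9.13 and 8.61 in shCHK1 and by 8.88 and 8.33 in shCHK2 (set 1, then set 2). AKR1C2 differed from it by -3.25 and -6.97 in shCHK1 and by -2.47 and -7.05 in shCHK2. What separates shControl from the knockdowns in these genes was not tested. The labels do not say whether the CCNE1 probe reads the overexpressed transcript.

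**Figure D1:**
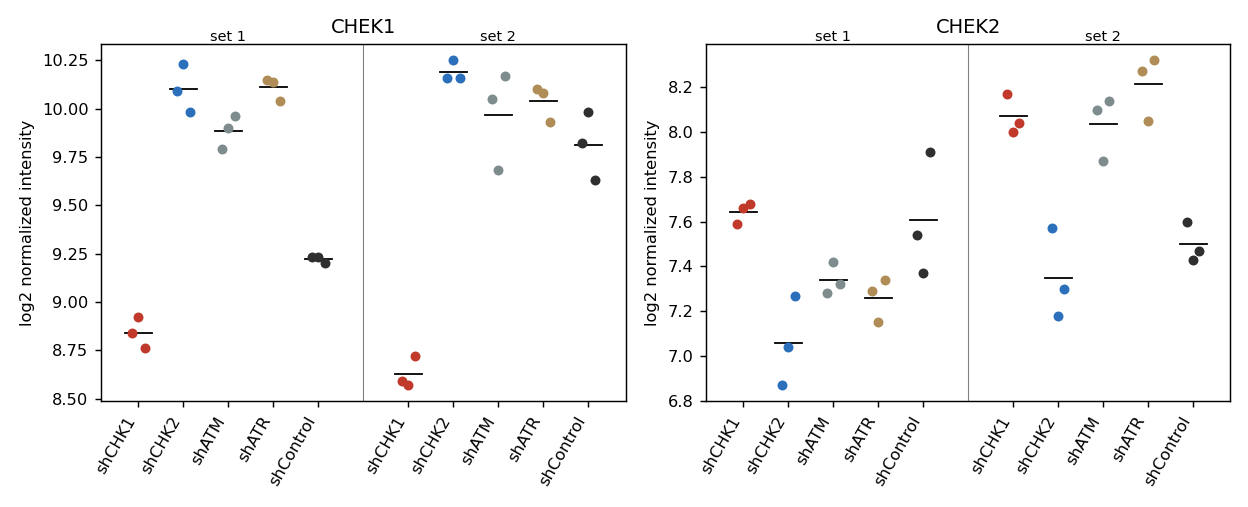
CHEK1 (left) and CHEK2 (right) on every array, in log2 normalized intensity, with 3 arrays (points) and their mean (bar) for each shRNA in set 1 and set 2. CHEK1 averaged 8.84 in shCHK1 and 10.1 in shCHK2 in set 1, and 8.63 and 10.19 in set 2; the other groups of knockdown cells lie near shCHK2.

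Beyond the targets, few genes separated shCHK1 from shCHK2 in both sets. Of 13721 genes, 1058 passed an adjusted p of 0.05 in set 1 (7.71%), of which 495 were higher (3.61%) and 563 lower (4.1%) in shCHK1. In set 2, 430 passed (3.13%), of which 248 were higher (1.81%) and 182 lower (1.33%). Only 67 genes (0.488% of those tested) passed in both sets with the same sign, 39 higher (0.284%) and 28 lower (0.204%) in shCHK1, and 53 (0.386%) passed in both with opposite signs. The same-sign genes were 6.33% of the set 1 calls and 15.6% of the set 2 calls. Across all 13721 genes the set 1 and set 2 differences correlated at Pearson r = 0.04 (Spearman 0.05), a description over genes, which are not independent, from sets that share no array; 52.2% of genes had the same sign. The test of the difference between sets called 641 genes (4.67%), and that of the average over sets 868 (6.33%).

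In 65 of the 67 same-sign genes the 3 shCHK1 and 3 shCHK2 arrays did not overlap in either set. The 67 genes were chosen by a test on these same arrays, so the separation follows largely from the choice. It adds no support to the calls, and the share over all genes was not counted. The within-set differences of these genes ran between 0.27 and 2.22 for those higher in shCHK1 and between -3.48 and -0.33 for those lower. In 5 genes both fitted differences were at least 1 on the log2 scale (MACROH2A2, CHEK1, CDH11, VCAN and GPR37). CDH11 was not detected in shCHK1 of either set, and GPR37 not in shCHK1 of set 2, so these differences have no exact size. The count of 67 was 44 without replicate 1 of shCHK1 set 1, 43 without its replicate 3, 41 without replicate 1 and 43 without replicate 2 of shCHK1 set 2, 43 without replicate 3 of shCHK2 set 1, and 44 without replicate 2 or replicate 3 of shCHK2 set 2; with the 12 arrays alone in the fit it was 27. The set 1 count of 1058 was 662 without replicate 1 and 661 without replicate 2 of shCHK1 set 1, and 529 without replicate 3 of shCHK2 set 1. The set 2 count of 430 was 277 without replicate 1 and 283 without replicate 2 of shCHK1 set 2, and 258 without replicate 3 of shCHK2 set 2. Under median scaling in place of quantile normalization, 32 genes were higher and 36 lower in both sets, and 57.2% of the set 1 calls and 45% of the set 2 calls were higher, beside 46.8% and 57.7%.

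**Figure D2:**
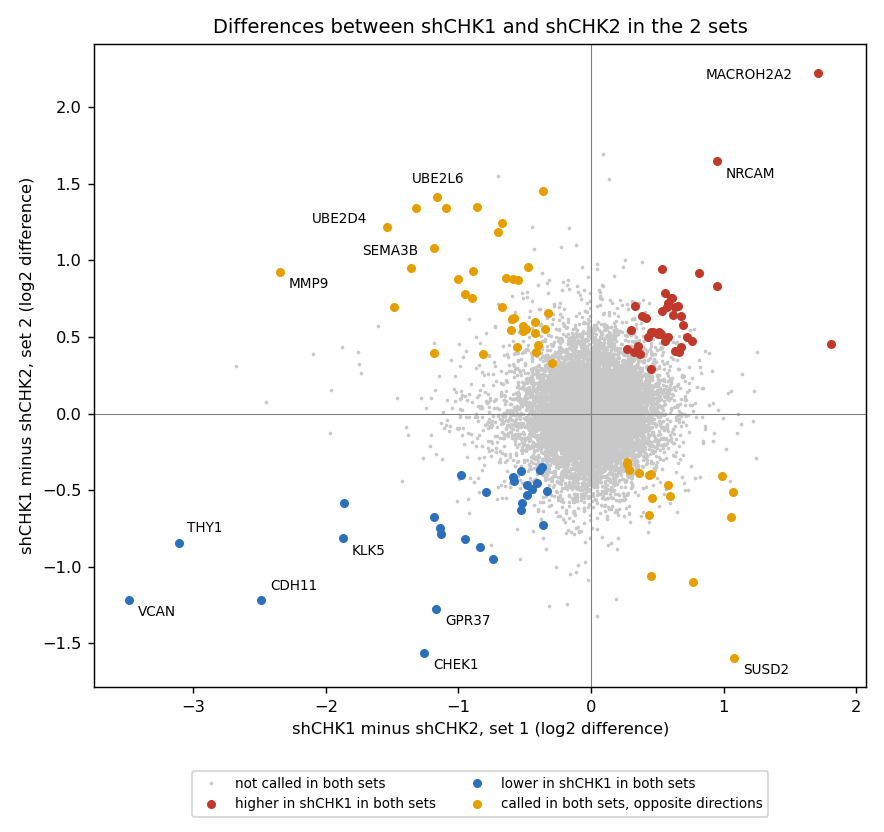
Log2 difference of shCHK1 minus shCHK2 in set 1 (x axis) against that in set 2 (y axis) for 13721 genes (points), coloured by the call. The 39 genes higher and 28 lower in both sets lie at the upper right and lower left, and 53 genes called in both sets lie at the upper left and lower right.

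The gene that was higher in shCHK1 by the widest margin in both sets was MACROH2A2, which encodes the histone variant macroH2A2. Its values were 6.83, 6.71 and 7.03 in shCHK1 of set 1, against 5.12, 5.28 and 5.04 in shCHK2. In set 2 they were 7.09, 7.42 and 7.20 in shCHK1, against 5.05, 5.22 and 4.77 in shCHK2. The groups stood apart by 3.27-fold in set 1 (log2 difference 1.71, SE 0.15, adjusted p = 1.2e-08) and 4.66-fold in set 2 (log2 difference 2.22, SE 0.15, adjusted p = 7e-10). The MACROH2A2 probe was dim in shCHK2, with means of 5.15 in set 1 and 5.01 in set 2. It was detected there on 3 of 3 and 2 of 3 arrays, so both folds rest on a signal near background. Beside the mean of shATM and shATR, shCHK2 differed by -1.93 and -2.5, and shCHK1 by -0.22 and -0.28 (adjusted p = 0.34 and 0.29). Beside shControl, MACROH2A2 differed in shCHK1 by -0.69 in set 1 (adjusted p = 3.2e-04) and -0.28 in set 2 (adjusted p = 0.11), and in shCHK2 by -2.40 and -2.51. NRCAM, a neuronal cell adhesion molecule, was 7.46, 7.39 and 7.43 in shCHK1 of set 1, against 6.35, 6.53 and 6.56 in shCHK2, and was higher by 0.95 (SE 0.13, adjusted p = 2e-05). In set 2 its difference was 1.65 (adjusted p = 6.6e-09), with 7.34, 7.66 and 7.48 in shCHK1, against 5.79, 5.80 and 5.96 in shCHK2. No shCHK2 array of either set reached the lowest shCHK1 array of NRCAM.

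TAGLN, which encodes the actin-binding protein transgelin, was higher in shCHK1 than in shCHK2 by 0.95 in set 1 (SE 0.21, adjusted p = 0.0054) and 0.83 in set 2 (adjusted p = 0.027). TAGLN in shCHK1 differed from shControl by -1.93 in set 1 (limma, adjusted p = 1.8e-08) and 0.06 in set 2 (adjusted p = 0.84). In shCHK2 it differed from shControl by -2.88 and -0.77. TAGLN in shCHK1 thus did not pass above shControl in either set. Its probe was dim, detected on 3 shCHK1 arrays of each set, against 1 shCHK2 array of set 1 and 2 of set 2. MGMT, the enzyme that removes alkyl groups from guanine in DNA, was higher by 0.82 in set 1 (SE 0.15, adjusted p = 5.9e-04) and 0.92 in set 2 (adjusted p = 3.1e-04). Both groups held less MGMT than shATM and shATR, with -1.12 and -1.14 in shCHK1 and -1.93 and -2.06 in shCHK2 (set 1, then set 2), and less than shControl. TNFRSF14, a TNF receptor family member that binds the cytokine LIGHT, was higher by 0.68 and 0.63 (SE 0.13). DMBT1, a secreted mucin-like glycoprotein, was higher by 0.61 and 0.64 (SE 0.13). HES4, a transcriptional repressor of the Hairy family, was higher by 0.60 and 0.75 (SE 0.14). ANXA10, an annexin, was higher by 0.69 and 0.58 (SE 0.10), and MARCHF4, a membrane ubiquitin ligase, by 0.56 and 0.79 (SE 0.10).

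SNURF and SNRPN, which share an imprinted locus and overlapping transcripts, were both higher in shCHK1. SNURF differed by 0.57 in set 1 and 0.70 in set 2 (SE 0.16), and SNRPN, which was taken up for its overlap with SNURF after its values were seen, by 0.54 and 0.94. Because the transcripts overlap, the signal of a probe cannot be assigned to one of them with certainty. The other genes of the 14 with the widest margin were SCARNA9, a small Cajal body RNA (0.65 and 0.70, SE 0.16), SFTA1P, a transcribed pseudogene (0.63 and 0.70, SE 0.18), and EVI5L, a Rab GTPase-activating protein (0.61 and 0.75, SE 0.19). With each of the 12 arrays left out in turn, SFTA1P and EVI5L passed in both sets in only 2 of 12 fits, SNURF in 6, TAGLN in 8, SCARNA9 in 9 and HES4 in 11, the exception being replicate 3 of shCHK2 set 1. In 30 of the 39 higher genes, shCHK2 had the lowest mean of the 4 knockdowns in both sets, and in 7 shCHK1 had the highest. The genes were chosen for shCHK1 above shCHK2, which favours these places. The share over all genes was not counted.

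After CHEK1, the genes lower in shCHK1 by the widest margins, ranked by the smaller of their 2 set differences, were CDH11, VCAN, GPR37, THY1 and KRT80. VCAN, the matrix proteoglycan versican, stood at 5.29, 5.98 and 5.88 in shCHK1 of set 1, against 9.15, 9.11 and 9.36 in shCHK2, and was 11.2-fold lower (log2 difference -3.48, SE 0.17, adjusted p = 2.4e-13). Its set 2 values were 7.40, 6.99 and 7.53 in shCHK1, against 8.26, 8.50 and 8.81 in shCHK2, which is 2.32-fold lower (log2 difference -1.22, adjusted p = 6.3e-05). The groups did not overlap in either set, but the 2 differences differed from each other (2.27, adjusted p = 7.5e-07). CDH11, a cadherin of mesenchymal cells, was detected on 0 of 6 shCHK1 and 6 of 6 shCHK2 arrays. It was at least 4.48-fold lower in set 1 (adjusted p = 1.5e-12) and at least 1.69-fold lower in set 2 (adjusted p = 1.7e-06), taking the dim group no lower than the dimmest detected probe of each array. THY1, a surface glycoprotein of fibroblasts and T cells, was not detected in shCHK1 of set 1 and stood at 7.48, 7.62 and 7.52 in shCHK2, which made it at least 6.08-fold lower in shCHK1 (adjusted p = 9.3e-18). In set 2 it was 6.89, 7.03 and 6.95 in shCHK1, against 7.91, 7.69 and 7.81 in shCHK2, a difference of -0.84 (SE 0.09, adjusted p = 2.3e-06).

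Beside the mean of shATM and shATR, VCAN lay at -2.61 and -0.93 in shCHK1 (adjusted p = 1.6e-12 and 3.5e-04) and at 0.87 and 0.28 in shCHK2 (adjusted p = 1.9e-04 and 0.30). Beside shControl, VCAN in shCHK1 was lower in set 1 (-0.55, adjusted p = 0.0089) but higher in set 2 (1.33, adjusted p = 2.5e-07), and in shCHK2 it was higher in both (2.94 and 2.54). CDH11 in shCHK2 lay 0.83 (adjusted p = 1.4e-05) and 0.11 (adjusted p = 0.65) from the mean of shATM and shATR. THY1 was above that mean in shCHK2 of both sets (1.89 and 2.08) and in shCHK1 of set 2 (1.23). No size is given for CDH11 in shCHK1 or for THY1 in shCHK1 of set 1, where they were not detected.

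GPR37, an orphan G protein-coupled receptor, was lower, at -1.17 in set 1 (SE 0.16, adjusted p = 2.8e-05). In shCHK1 of set 1 it was detected on 1 of 3 arrays and averaged 4.99, so this size rests on a signal near background. GPR37 was not detected in shCHK1 of set 2 and was at least 2.04-fold lower there (adjusted p = 2e-05). KRT80, a keratin, was 8.74, 8.63 and 8.57 in shCHK1 of set 1, against 9.52, 9.50 and 9.44 in shCHK2. The set 2 levels were 8.03, 8.10 and 8.24 in shCHK1, against 8.96, 8.99 and 9.01 in shCHK2. Its differences in the 2 sets were nearly equal, at -0.84 and -0.87 (SE 0.10, adjusted p = 1.3e-06 and 1.8e-06).

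IL6, the inflammatory cytokine interleukin-6, was 8.40, 8.37 and 8.17 in shCHK1 of set 1, against 9.64, 9.46 and 9.26 in shCHK2. Its set 2 values were 7.34, 7.60 and 7.29 in shCHK1, against 8.35, 8.10 and 8.03 in shCHK2. It was 2.20-fold lower in set 1 (log2 difference -1.14, SE 0.12, adjusted p = 3e-07) and 1.68-fold lower in set 2 (log2 difference -0.75, adjusted p = 3.2e-04), with no overlap. SLC2A3, the glucose transporter GLUT3, was lower, at -1.19 and -0.68 (SE 0.10). ELOVL4, which elongates very long chain fatty acids, was lower, at -1.13 and -0.79 (SE 0.17). KLK5, a serine protease that acts in the shedding of skin cells, was lower, at -1.87 and -0.81 (SE 0.12). Its other probes gave -1.85 and -1.54 in set 1. In set 2 they were detected on 3 of 6 and 0 of 6 arrays and give no size there.

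The remaining genes of the 14 lower ones with the widest margin were dim or depended on a probe or an array. ISM1, which encodes the secreted protein isthmin, differed by -0.95 and -0.82 (SE 0.19), but its arrays overlapped in set 2, and a second ISM1 probe, detected on 6 of 12 arrays, gave 0.05 and 0.17. With the probes of a gene averaged, ISM1 was not called. SGPP2, a sphingosine phosphate phosphatase, differed by -0.74 and -0.95 (SE 0.23). REPIN1, a zinc finger protein, differed by -1.86 and -0.58 (SE 0.16), and its signal in shCHK1 of set 1 was detected on 1 of 3 arrays. Another REPIN1 probe was detected on only 2 of 12 arrays. PPARG, a nuclear receptor of lipid metabolism, was detected on 0 of 6 shCHK1 arrays and was at least 1.13-fold (set 1) and 1.40-fold (set 2) lower, with 2 of 3 shCHK2 arrays detected in set 1. With each of the 12 arrays left out in turn, SGPP2 passed in both sets in 4 fits, PPARG in 5, REPIN1 in 6, ISM1 in 9 and ELOVL4 in 10. In 13 of the 28 lower genes shCHK1 had the lowest mean of the 4 knockdowns in both sets, and in 14 shCHK2 had the highest. Here too the choice of genes, for shCHK1 below shCHK2, favours these places.

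**Figure D3:**
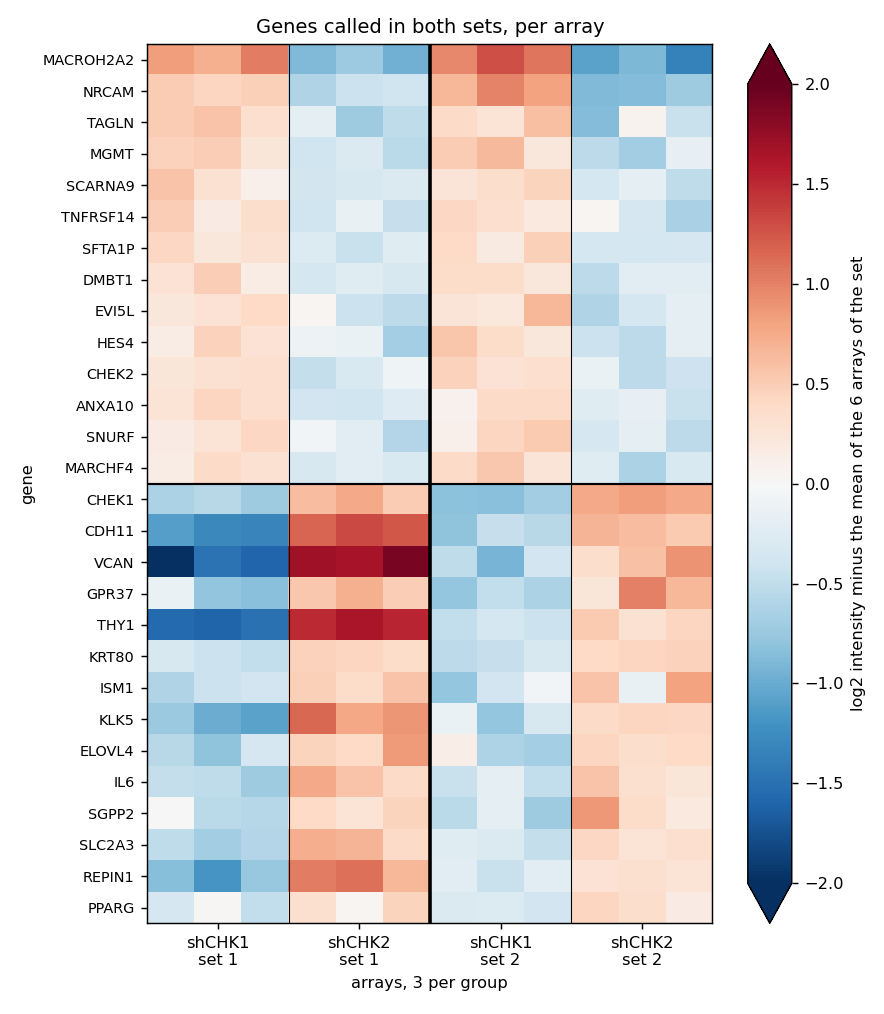
Log2 intensity on each of the 12 arrays (columns, 3 per group) minus the mean of the 6 arrays of its set, for the 14 genes higher (upper rows) and 14 lower (lower rows) in shCHK1 with the widest margin in both sets. Red is above and blue below that mean; VCAN differs by -3.48 in set 1 and by -1.22 in set 2. Signals of groups that were not detected, such as CDH11 in shCHK1, are drawn as measured.

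Of 668 genes on 27 lists of pathways and cell types, 561 were tested. On these lists, 6 genes were called with the same sign in both sets (CHEK1, CHEK2, IL6, TAGLN, KLK5 and THY1) and 11 with opposite signs, beside 67 and 53 among all 13721 genes. On 21 of the lists no member was called with the same sign in both sets. The median difference over all genes was 0.002 in set 1 and 0.004 in set 2. Of all genes, 3.61% were higher and 4.1% lower in set 1, and 1.81% were higher and 1.33% lower in set 2. No set test was run, and a list count near these shares is not a result about its list. At an unadjusted p under 0.05 in limma's test, 2861 of all genes passed in set 1, 1997 in set 2 and 350 in both with the same sign.

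On the 5 lists of checkpoint, replication, recombination, G1/S and mitosis genes, 158 genes were tested, of which 16 passed in set 1 (10.1%, beside 7.71% of all genes) and 2 in set 2 (1.27%, beside 3.13%). CHEK1 and CHEK2 were the 2 that passed in both. With 0.488% of all genes called with the same sign in both sets, the lack of other such calls on lists of this size is not a result about these genes. Of 29 tested genes of checkpoint signalling, CHEK2 was higher and CHEK1 lower in both sets, and no other member was called in both (medians -0.03 and -0.04). ATR, whose kinase activates CHK1, differed by 0.16 and 0.28 (SE 0.16, adjusted p = 0.64 and 0.45) and was dim. MDM4, an inhibitor of p53, differed by 0.44 and 0.08, and TLK1, a chromatin kinase downstream of CHK1, by -0.33 and -0.12. None of these 3 passed in either set.

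Of 40 genes of DNA replication and nucleotide supply, none was called in both sets (medians 0.05 and -0.07). In set 1, 2 were higher and 1 lower, and in set 2 none passed, with 11, 5 and 1 below an unadjusted p of 0.05 in set 1, in set 2 and in both with the same sign. The lower gene was PCNA, the sliding clamp of DNA polymerase, at 12.43, 12.47 and 12.40 in shCHK1, against 12.64, 12.90 and 12.86 in shCHK2 (-0.37, SE 0.10, adjusted p = 0.021). Its arrays did not overlap in set 2 either, at 12.86, 13.09 and 13.28 in shCHK1, against 13.41, 13.29 and 13.42 in shCHK2, but the difference of -0.30 missed the threshold (adjusted p = 0.11). None of the 40 passed in set 1 without replicate 3 of shCHK2 set 1. GMNN, the licensing inhibitor geminin, differed by -0.42 and -0.21, and MCM7, a subunit of the replicative helicase, by 0.30 and 0.06, and neither was called.

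Of 28 genes of recombination and fork protection, 2 were higher in set 1 and none passed in set 2, with 8, 3 and 2 below an unadjusted p of 0.05. SMARCAL1, which reverses stalled forks, was higher by 0.47 in set 1 (SE 0.12, adjusted p = 0.014) and differed by 0.36 in set 2 (adjusted p = 0.11). FANCC, of the Fanconi anemia core complex, was higher by 0.55 in set 1 (SE 0.16, adjusted p = 0.038), and its set 2 difference was 0.16 (adjusted p = 0.74). Among 27 regulators of G1/S and E2F genes, 2 were higher and 1 lower in set 1 and none passed in set 2, with 7, 9 and 2 below an unadjusted p of 0.05. CDKN2B, the inhibitor of CDK4 and CDK6 called p15, was lower, at -0.78 in set 1 (SE 0.17, adjusted p = 0.0036), beside 0.13 in set 2 (adjusted p = 0.81). CDKN1A, the CDK inhibitor p21 and a p53 target, differed by 0.29 and 0.36 (SE 0.13, adjusted p = 0.21 and 0.17) and was not called.

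Of 38 genes of G2 and mitosis, 1 was higher and 4 were lower in set 1, and none passed in set 2 (medians -0.05 and -0.04), with 11, 4 and 1 below an unadjusted p of 0.05. AURKB, the Aurora kinase of the chromosomal passenger complex, was lower, at -0.57 in set 1 (SE 0.11, adjusted p = 0.0014), beside -0.16 in set 2 (adjusted p = 0.55). MAD2L1, of the spindle checkpoint, was lower, at -0.52 (SE 0.11, adjusted p = 0.0039), beside -0.16. CCNA2, the gene of cyclin A2, was lower, at -0.31 (SE 0.07, adjusted p = 0.008), beside -0.16 (adjusted p = 0.30). KIF20A, a kinesin of cytokinesis, was higher by 0.50 (SE 0.09, adjusted p = 0.001), beside 0.04. For AURKB, MAD2L1 and CCNA2 the test of the difference between sets was not passed (adjusted p = 0.16, 0.23 and 0.51), and for KIF20A it was (adjusted p = 0.047).

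Of 29 p53 targets, 2 were higher and 1 lower in set 1, and 1 was lower in set 2. MDM2, the ubiquitin ligase that holds p53 down, was lower, at -0.92 in set 1 (SE 0.17, adjusted p = 7.2e-04), with 7.12, 7.21 and 7.11 in shCHK1, against 7.71, 8.24 and 8.25 in shCHK2. In set 2 the groups overlapped, at 8.14, 7.75 and 8.41 in shCHK1, against 7.91, 7.97 and 8.03 in shCHK2 (0.13, adjusted p = 0.81). BAX, which permeabilizes mitochondria in apoptosis, was higher by 0.64 in set 1 (SE 0.13, adjusted p = 0.0022) and differed by -0.04 in set 2; a dimmer BAX probe gave 0.05 in both. Another MDM2 probe gave 0.18 in set 1 and -0.16 in set 2, so the set 1 size rests on the brighter probe. Of 18 histone genes, none passed in set 1 and 1 was higher in set 2.

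Inflammatory and skin differentiation genes were lower in shCHK1 mainly in set 1. Of 25 inflammatory cytokines and NF-kB targets, 8 were lower and none higher in set 1 (median -0.31), beside 4.1% and 3.61% of all genes. In set 2, 2 were lower and none higher (median 0.01), beside 1.33% and 1.81% of all genes, with IL6 lower in both sets. PTGS2, the prostaglandin synthase COX-2, stood at 10.22, 10.36 and 10.23 in shCHK1 of set 1, against 11.29, 11.36 and 11.43 in shCHK2 (-1.09, SE 0.10, adjusted p = 6.4e-08). In set 2 it was 8.15, 8.36 and 8.42 in shCHK1, against 8.18, 8.18 and 8.31 in shCHK2, with overlap and a difference of 0.09 (adjusted p = 0.79). CCL20, a chemokine for lymphocytes, was lower, at -0.75 in set 1 (SE 0.11, adjusted p = 3.4e-05), beside -0.24 in set 2 (adjusted p = 0.29). IL36G, an interleukin-1 family cytokine of epithelium, was lower, at -0.60 in set 2 (SE 0.16, adjusted p = 0.044), beside -0.43 in set 1 (adjusted p = 0.12). ICAM1, an adhesion molecule for leukocytes, had differences of -0.76 and -0.86 (SE 0.26, adjusted p = 0.073 and 0.07) and was called in neither set. Without replicate 3 of shCHK2 set 1, 7 of the 25 were lower in set 1.

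Of 27 genes of keratinocyte differentiation, 8 were lower and none higher in set 1 (median -0.25), beside 4.1% and 3.61% of all genes. KLK5 alone was lower in set 2 (median -0.01), beside 1.33% of all genes. S100A7, the antimicrobial protein psoriasin, was 6.50, 6.83 and 6.66 in shCHK1 of set 1, against 7.96, 7.98 and 7.89 in shCHK2 (-1.28, SE 0.12, adjusted p = 5.4e-08). In set 2 the groups overlapped, with 6.86, 6.91 and 6.71 in shCHK1, against 6.61, 6.88 and 6.68 in shCHK2 (0.10, adjusted p = 0.79). PI3, the elastase inhibitor elafin, was lower, at -0.83 in set 1 (SE 0.15, adjusted p = 9.1e-04) and differed by 0.05 in set 2. SBSN, which encodes suprabasin of the upper epidermis, was lower, at -0.93 (SE 0.15, adjusted p = 1.4e-04). Without replicate 3 of shCHK2 set 1, 6 of the 27 were lower in set 1. Of 8 kallikrein-related peptidases, 3 were lower in set 1, KLK5, KLK6 (-1.17, SE 0.18, adjusted p = 8.3e-05) and KLK7 (-0.79, SE 0.17, adjusted p = 0.0034), and KLK5 alone was lower in set 2. A second KLK6 probe went the other way in set 1. It was dim, detected there on 3 shCHK1 and 0 shCHK2 arrays, so the lower KLK6 rests on the brighter probe. In set 1 SBSN and KLK7 were each detected on 1 of 3 shCHK1 arrays, so their sizes there rest on a signal near background. In set 2 SBSN and KLK7 were detected on no array and KLK6 on 1, so for SBSN, KLK7 and KLK6 the sets cannot be compared. The difference between sets was itself called for PTGS2, CCL20, S100A7 and PI3.

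Members of the interferon response list were called in opposite directions in the 2 sets. Of its 25 tested genes, 2 were higher and 4 lower in shCHK1 in set 1 (median -0.15), and 6 were higher and none lower in set 2 (median 0.14). The 4 lower in set 1 (UBE2L6, ISG20, OAS3 and SAMD9) were all higher in set 2, and no member was called with the same sign in both. Among all genes, 0.386% were called with opposite signs. ISG20, OAS3 and SAMD9 were named after their values were seen. Interferons signal through STAT and IRF factors that bind a short repeated element in the promoters of these genes, the interferon-stimulated response element. Its core was searched as a pair of GAAA repeats with any 2 bases between them, on either strand (a pair of TTTC repeats when read from the other strand), and was found in 3 of the 4 promoters. These are shown because the 4 genes carry the opposite result, and are printed from RefSeq (build GRCh38.p14; windows of 300 bases across the gene start, most of them upstream, in the direction of the gene) with the matches in capitals. OAS3 holds 2 separate matches.
ISG20 (chr15:88638766-88639065, plus strand): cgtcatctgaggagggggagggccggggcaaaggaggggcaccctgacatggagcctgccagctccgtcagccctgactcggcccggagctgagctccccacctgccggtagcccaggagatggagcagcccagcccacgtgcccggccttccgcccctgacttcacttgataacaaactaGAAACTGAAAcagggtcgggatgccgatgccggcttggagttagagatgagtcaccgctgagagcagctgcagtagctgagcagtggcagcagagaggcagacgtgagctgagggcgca
OAS3 (chr12:112938224-112938523, plus strand): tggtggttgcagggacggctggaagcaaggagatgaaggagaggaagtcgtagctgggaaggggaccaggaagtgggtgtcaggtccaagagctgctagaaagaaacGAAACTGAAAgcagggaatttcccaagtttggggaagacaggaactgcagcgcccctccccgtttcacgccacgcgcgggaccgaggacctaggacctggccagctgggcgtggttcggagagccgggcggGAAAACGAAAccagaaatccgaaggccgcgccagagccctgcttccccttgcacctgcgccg
SAMD9 (chr7:93117930-93118229, minus strand): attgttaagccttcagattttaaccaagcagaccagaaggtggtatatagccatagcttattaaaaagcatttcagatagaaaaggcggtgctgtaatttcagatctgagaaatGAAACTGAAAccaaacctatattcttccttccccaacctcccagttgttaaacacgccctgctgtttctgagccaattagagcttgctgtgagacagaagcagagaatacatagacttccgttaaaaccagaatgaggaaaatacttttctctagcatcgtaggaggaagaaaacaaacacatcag
UBE2L6 (chr11:57567886-57568185, minus strand, no match): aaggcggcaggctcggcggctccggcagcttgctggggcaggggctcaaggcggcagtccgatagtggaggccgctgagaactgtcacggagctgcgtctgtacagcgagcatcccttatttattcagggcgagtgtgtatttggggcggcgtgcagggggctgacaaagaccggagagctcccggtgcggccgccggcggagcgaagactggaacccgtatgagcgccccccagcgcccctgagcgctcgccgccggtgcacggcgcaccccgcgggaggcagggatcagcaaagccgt

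The motif stands in 996 of 27305 RefSeq promoter windows of this length (3.65%) and in 14 of the 22 tested interferon response genes that had a window (63.6%). Among the 18 of these that were not called in both sets, 11 held it (61.1%), beside 3 of the 4 called in opposite directions (75.0%). A match describes the letters and is not evidence of binding.

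UBE2L6, the ubiquitin-conjugating enzyme for ISG15, was 6.94, 6.95 and 6.81 in shCHK1 of set 1, against 8.21, 8.06 and 7.92 in shCHK2 (-1.16, SE 0.15, adjusted p = 1.1e-05). Set 2 gave 7.84, 7.84 and 7.62 in shCHK1, against 6.51, 6.39 and 6.16 in shCHK2 (1.41, adjusted p = 1.5e-06). The order of the groups turned over between the sets without overlap, and the difference between sets was 2.57 (adjusted p = 1.2e-08). A second UBE2L6 probe gave -0.67 and 0.33. ISG20, an exonuclease that degrades single-stranded RNA, was 8.77, 8.80 and 8.62 in shCHK1 of set 1, against 9.46, 9.50 and 9.16 in shCHK2 (-0.64, SE 0.12, adjusted p = 8.9e-04). In set 2 it was 8.21, 8.22 and 8.15 in shCHK1, against 7.25, 7.44 and 7.24 in shCHK2 (0.88, adjusted p = 3.9e-05). SAMD9, an antiviral protein, was lower, at -0.56 in set 1 (SE 0.10, adjusted p = 3.9e-04) and higher by 0.44 in set 2 (adjusted p = 0.0095). OAS3, which makes oligoadenylates that activate RNase L, was lower, at -0.35 in set 1 (SE 0.11, adjusted p = 0.043) and higher by 0.55 in set 2 (adjusted p = 0.0026). Without replicate 3 of shCHK2 set 1, OAS3 was no longer called in both sets, while UBE2L6, ISG20 and SAMD9 were.

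The other members did not follow one order. IFIT2, which binds viral RNA, was higher by 0.77 in set 2 (SE 0.20, adjusted p = 0.034), beside 0.07 in set 1, and IRF1, a transcription factor of the pathway, was higher by 0.56 in set 1 (SE 0.17, adjusted p = 0.045), beside 0.18 in set 2. Without replicate 3 of shCHK2 set 1 no member was higher in set 1. Of 13 genes of MHC class I antigen presentation, 3 were lower in set 1 (median -0.17; 2 without replicate 3 of shCHK2 set 1) and 1 was higher in set 2 (median 0.15). HLA-B was lower, at -0.77 in set 1 (SE 0.16, adjusted p = 0.003), beside 0.37 in set 2 (adjusted p = 0.27), and its probe may also bind transcripts of other class I genes. PSMB9, an immunoproteasome subunit, was higher by 0.79 in set 2 (SE 0.21, adjusted p = 0.038), beside -0.48 in set 1 (adjusted p = 0.19). TAPBP, which loads peptides on class I molecules, was lower, at -0.42 in set 1 (SE 0.10, adjusted p = 0.0071), beside 0.15 in set 2. The difference between sets was called for HLA-B, PSMB9 and TAPBP.

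Of all 53 genes called with opposite signs, 37 were lower in shCHK1 in set 1 and higher in set 2, and 16 the reverse. HS3ST2, a heparan sulfate sulfotransferase, was 5.89, 6.08 and 5.95 in shCHK1 of set 1, against 7.60, 7.47 and 6.79 in shCHK2 (-1.32, SE 0.19, adjusted p = 3.6e-05). In the other set it was 7.08, 7.14 and 7.20 in shCHK1, against 5.89, 5.69 and 5.82 in shCHK2 (1.34, adjusted p = 5.6e-05). The shCHK1 level of one set was thus near the shCHK2 level of the other. SRGN, the proteoglycan serglycin of secretory granules, had the same order, with 7.93, 7.84 and 7.88 in shCHK1 of set 1, against 9.20, 9.05 and 8.69 in shCHK2, and 8.78, 9.06 and 8.91 in shCHK1 of set 2, against 7.79, 7.44 and 7.49 in shCHK2. Its differences were -1.10 and 1.34 (SE 0.15). SUSD2, a membrane protein with a sushi domain, ran the other way, with 7.33, 7.15 and 7.29 in shCHK1 of set 1, against 6.05, 6.51 and 5.97 in shCHK2 (1.08, SE 0.14). In set 2 it was 7.83, 7.71 and 7.12 in shCHK1, against 9.17, 9.08 and 9.20 in shCHK2 (-1.60).

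UBE2D4, a ubiquitin-conjugating enzyme, was not detected in shCHK1 of set 1 or in shCHK2 of set 2. It was at least 2.5-fold lower in shCHK1 in set 1 and at least 1.56-fold higher in set 2. SEMA3B, a secreted semaphorin, was lower, at -1.18 in set 1 (SE 0.18, adjusted p = 8.4e-05) and at least 1.80-fold higher in set 2 (adjusted p = 5.4e-04), where shCHK2 was not detected.

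**Figure D4:**
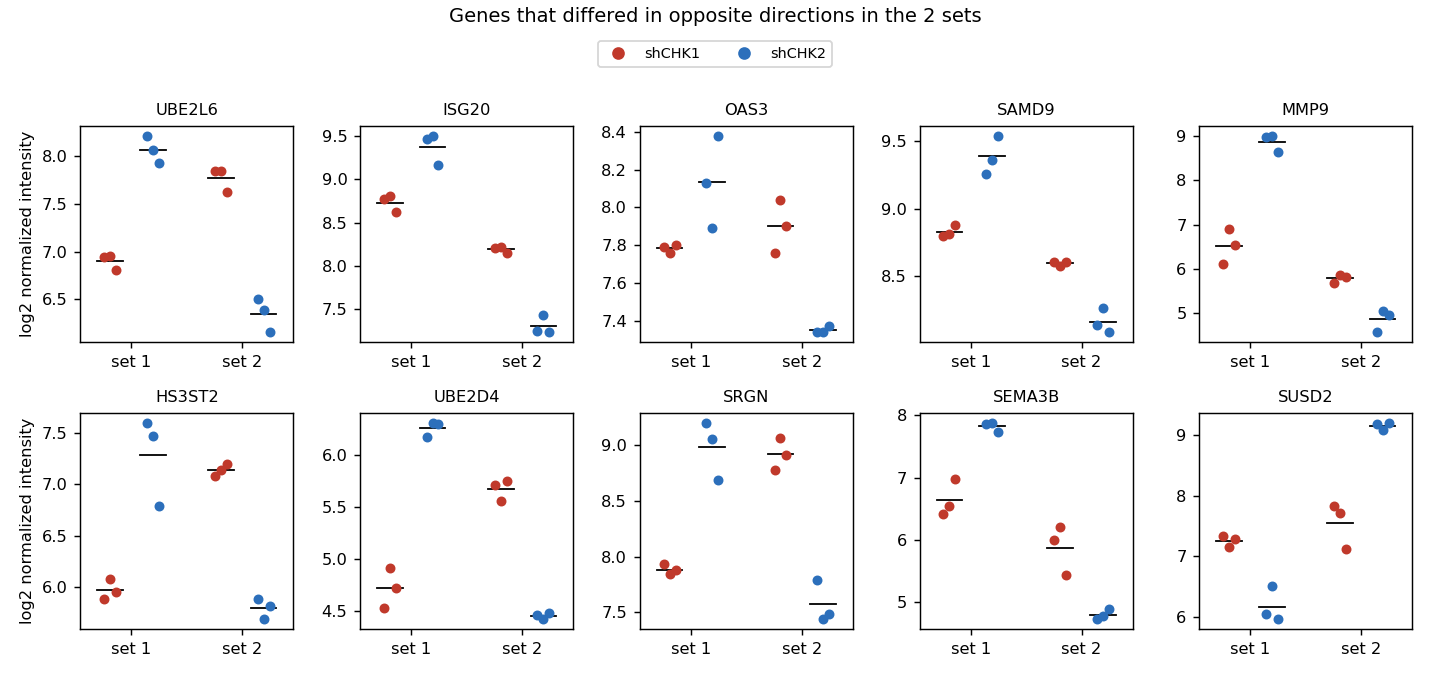
Log2 normalized intensity per array (points, 3 per group) with group means (bars) for 10 genes called with opposite signs, shCHK1 in red and shCHK2 in blue, in set 1 and set 2. In 9 of them shCHK1 lies below shCHK2 in set 1 and above it in set 2; SUSD2 has the reverse order.

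Genes of the matrix, of mesenchymal cells and of the basal epithelium also differed by set. Of 22 mesenchymal and extracellular matrix genes, 3 were higher and 3 lower in set 1, 2 were higher in set 2, and none was called with the same sign in both (medians -0.22 and 0.12). CDH2, the gene of N-cadherin, was 5.80, 6.10 and 5.85 in shCHK1 of set 1, against 8.03, 7.64 and 7.71 in shCHK2 (-1.88, SE 0.17, adjusted p = 3.3e-08). In set 2 its difference was 0.44 (adjusted p = 0.21), with 6.61, 6.57 and 6.02 in shCHK1, against 5.87, 5.98 and 6.04 in shCHK2. The groups were wide apart in set 1 and overlapped in set 2. S100A4, a calcium-binding protein of migrating cells, was lower, at -1.18 in set 1 (SE 0.15, adjusted p = 4.6e-06), beside 0.15 in set 2 (adjusted p = 0.71). FBN2, which encodes fibrillin-2 of elastic fibres, was higher by 0.74 in set 1 (SE 0.11, adjusted p = 6e-05), beside 0.31 in set 2 (adjusted p = 0.14).

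Of 11 matrix metalloproteinases and inhibitors, MMP9, a gelatinase, was called with opposite signs. It was 6.12, 6.91 and 6.55 in shCHK1 of set 1, against 8.97, 9.01 and 8.64 in shCHK2 (-2.35, SE 0.17, adjusted p = 5e-10). Its levels in set 2 were 5.69, 5.87 and 5.83 in shCHK1, against 4.58, 5.06 and 4.97 in shCHK2 (0.92, adjusted p = 0.0016). The gene was detected on 1 of 3 shCHK2 arrays there. The MMP9 difference turned over between the sets by 3.27 (adjusted p = 1.3e-09). MMP3, a stromelysin, was lower, at -1.10 in set 1 (SE 0.18, adjusted p = 1.8e-04) and not detected in set 2, and MMP1, an interstitial collagenase, was higher by 0.98 in set 2 (SE 0.09, adjusted p = 2e-07), beside 0.05 in set 1. Of 12 basal epithelial genes, 1 was lower in set 1 and 4 were higher in set 2 (medians -0.19 and 0.23). LAMB3, a laminin chain of the basement membrane, was higher by 0.45 in set 2 (SE 0.10, adjusted p = 0.0085), beside -0.29 in set 1 (adjusted p = 0.072).

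Of the listed genes called with opposite signs, 6 others are named after their values were seen. KRT14, a keratin of basal cells, was 9.92, 9.77 and 9.88 in shCHK1 of set 1, against 10.72, 10.75 and 10.13 in shCHK2, and 7.95, 7.95 and 8.01 in shCHK1 of set 2, against 7.20, 7.18 and 7.42 in shCHK2. LCN2, the iron-scavenging protein lipocalin-2, was 9.46, 9.42 and 9.48 in shCHK1 of set 1, against 10.39, 10.33 and 10.50 in shCHK2, and 7.01, 7.09 and 7.05 in shCHK1 of set 2, against 6.04, 6.37 and 6.41 in shCHK2. In both genes shCHK1 was below shCHK2 in set 1 and above it in set 2 without overlap, at -0.67 and 0.70 for KRT14 (SE 0.13) and at -0.95 and 0.78 for LCN2 (SE 0.14). FN1, the matrix protein fibronectin, was not detected in shCHK1 of set 1 or in shCHK2 of set 2, and was at least 1.45-fold lower in set 1 and at least 1.37-fold higher in set 2. EGR1, an immediate early transcription factor, differed by -0.42 and 0.40, FAP, a surface protease of fibroblasts, by -0.55 and 0.87, and SERPINB7, an epidermal protease inhibitor, by -0.48 and 0.96. All 6 were called on the difference between sets. Without replicate 3 of shCHK2 set 1, SERPINB7 was no longer called with opposite signs.

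Among the markers of other cell types, CD14 alone was detected on all 12 arrays. PTPRC and ITGAM of leukocytes, CDH5, VWF and KDR of endothelium, and COL3A1, PDGFRA, PDGFRB and LUM of fibroblasts were detected on 0 of 6 shCHK1 and 0 of 6 shCHK2 arrays. CD3D of T cells was detected on 1 shCHK1 and 0 shCHK2 arrays. Of the fibroblast markers COL1A1 was detected on 1 shCHK1 and 2 shCHK2 arrays, and DCN on 1 and 4. Their summed log2 level ran between 5.49 and 5.59 in shCHK1 of set 1, against 5.72 to 6.09 in shCHK2, and between 5.66 and 6.30 in shCHK1 of set 2, against 5.83 to 6.07 in shCHK2. Neither gene was detected in shCHK1 of set 1, so these sums lie near background and do not show a shift. CD14, a receptor for bacterial lipopolysaccharide, was detected on all 12 arrays and was lower in shCHK1, at -0.92 in set 1 (SE 0.15, adjusted p = 2.1e-04), beside -0.02 in set 2. The sum of CD14 and ITGAM ran between 6.79 and 7.10 in shCHK1 of set 1, against 7.64 to 7.72 in shCHK2, and between 7.45 and 7.91 in shCHK1 of set 2, against 7.41 to 7.88 in shCHK2. ITGAM was undetected and adds only background to this sum. The endothelial markers PECAM1 and CDH5 summed to between 5.42 and 6.04 in shCHK1 of set 1, against 5.57 to 5.78 in shCHK2, and between 5.55 and 5.95 in shCHK1 of set 2, against 5.45 to 5.65 in shCHK2. PECAM1 was detected on 2 shCHK1 and 0 shCHK2 arrays and CDH5 on none, so this sum too lies near background. Of 6 tested genes on the endothelial and fibroblast list, 2 were lower in set 1, and 1 was higher and 1 lower in set 2. Of 8 on the leukocyte list, CD14 alone was called in set 1 and none in set 2. The part of other cell types in the differences was not tested.

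The remaining lists held no member called with the same sign in both sets other than TAGLN. Their counts stand beside 3.61% higher and 4.1% lower among all genes in set 1, and 1.81% and 1.33% in set 2. Of 19 TGF-beta and YAP targets, which include TAGLN, 2 were higher and 2 lower in set 1 and 4 were higher in set 2. Of 24 hypoxia and glycolysis genes, 3 were higher and 2 lower in set 1 and 2 were higher in set 2. NDRG1, a hypoxia-responsive gene, was higher by 0.84 in set 2 (SE 0.10, adjusted p = 1e-05), beside -0.18 in set 1. PFKFB4, which controls glycolytic flux, was lower, at -0.91 in set 1 (SE 0.15, adjusted p = 2.1e-04), beside 0.19 in set 2. Of 20 NRF2 and oxidative stress genes, 1 was higher and 3 lower in set 1 and 1 was lower in set 2. AKR1C2, an aldo-keto reductase, was lower, at -0.78 in set 1 (SE 0.10, adjusted p = 8.5e-06), beside 0.07 in set 2. Of 34 genes of oxidative phosphorylation, 3 were higher in set 1 and none passed in set 2, with a median of 0.10 in both.

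Of 24 genes of the unfolded protein and integrated stress responses, 1 was higher and 2 lower in set 1 and 1 was lower in set 2. The last was PHGDH, the first enzyme of serine synthesis, at -0.64 (SE 0.11, adjusted p = 0.0013), beside 0.11 in set 1. Of 20 cholesterol synthesis genes, 1 was lower in set 1 and 2 were lower in set 2, with HMGCS1, an early enzyme of the pathway, at -0.60 in set 2 (SE 0.10, adjusted p = 7.3e-04) and -0.30 in set 1 (adjusted p = 0.071). Of 24 immediate early and ERK feedback genes, 2 were higher and 2 lower in set 1 and 3 were higher in set 2, among them FOS (0.52, SE 0.11, adjusted p = 0.0094) and FOSB (0.96, SE 0.22, adjusted p = 0.014), which make AP-1 and differed by 0.08 and 0.24 in set 1. Of 23 junction genes, 1 was higher and 2 lower in set 1, and 1 higher and 2 lower in set 2, and of 19 luminal genes 1 was higher and 2 lower in set 1 and 2 were higher in set 2. Of 7 clade B serpins, 2 were lower in set 1, and 2 were higher and 1 lower in set 2. Without replicate 3 of shCHK2 set 1, the set 1 calls were 1 on the oxidative phosphorylation list, 1 on the stress response list, 2 on the immediate early list, 1 on the junction list, 1 on the serpin list, 1 on the recombination list and 1 on the G1/S list.

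**Figure D5:**
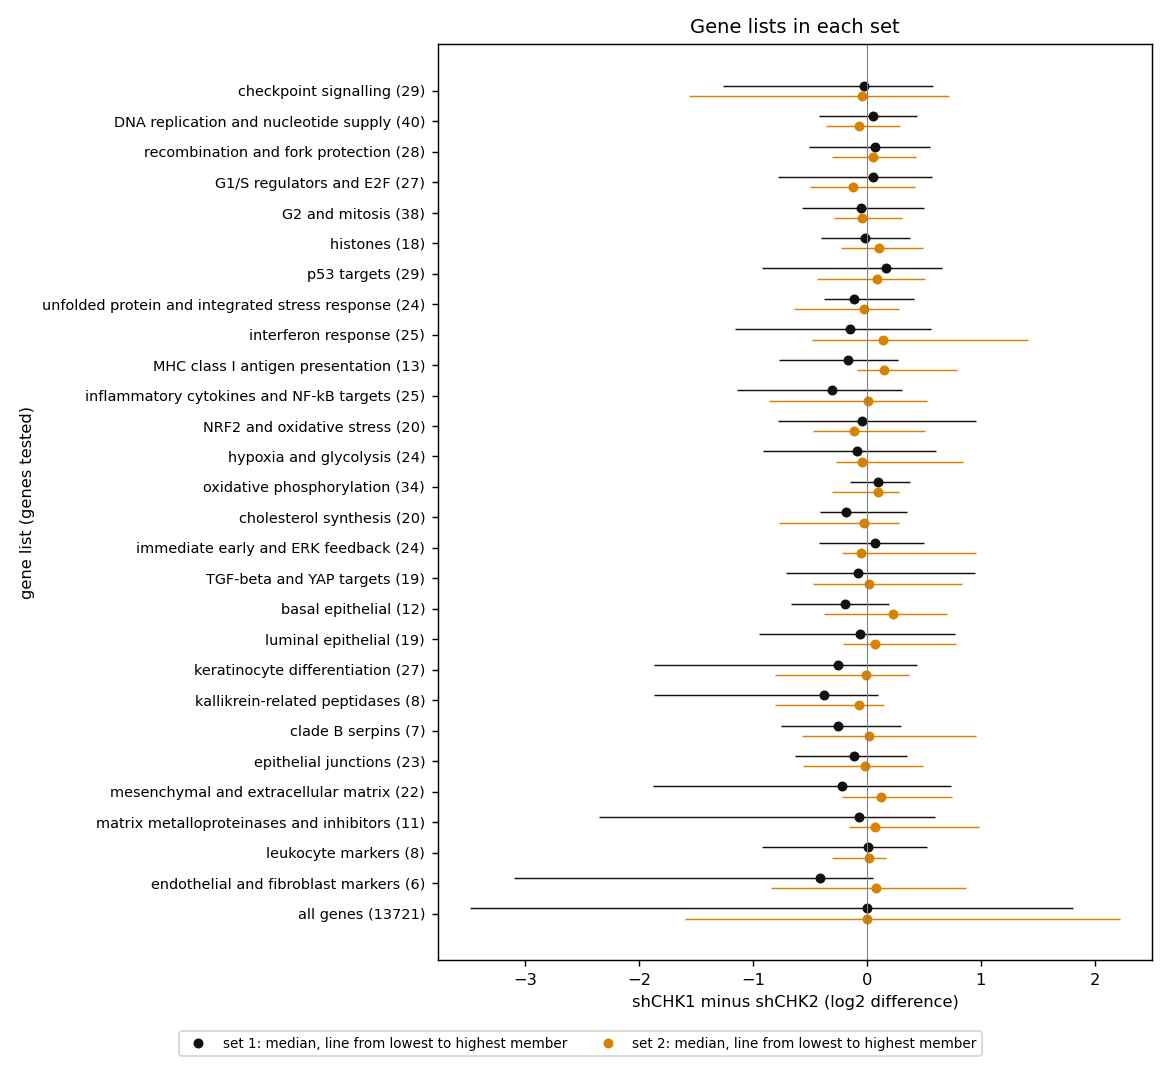
Median log2 difference of shCHK1 minus shCHK2 (points) with the range over members (lines) for 27 gene lists and for all genes, set 1 in black and set 2 in orange, with the number of genes tested in brackets. The medians of the inflammatory and keratinocyte differentiation lists lie at -0.31 and -0.25 in set 1 and near 0 in set 2, and those of the replication and mitosis lists lie within 0.07 of 0 in both sets.

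Some differences gathered on certain chromosomes, which was noticed in the values and is a description without a test. On chromosome 4, 5 neighbouring blocks of about 50 tested genes, from FRYL to ZNF827 in the gene order of RefSeq build GRCh38.p14 (245 genes), had a median difference of -0.21 in set 1 and -0.08 in set 2. In this stretch, picked out for its low medians, 75.1% of genes lay below 0 in set 1 and 62.4% in set 2. It holds 245 of the 13721 tested genes. Of the 28 lower genes 5 were there (AP1AR, CDS1, HSPA4L, SLC39A8 and SMARCAD1), with none of the 39 higher genes. The median of the stretch relative to all genes was -0.21, -0.26 and -0.21 on the shCHK1 arrays of set 1, against -0.07, -0.06 and -0.02 on the shCHK2 arrays. In set 2 it was 0.11, 0.14 and 0.13 in shCHK1, against 0.18, 0.19 and 0.17 in shCHK2. The arrays of shCHK1 and shCHK2 separated in both sets, by more in set 1, and the shControl arrays of both sets lay between 0.17 and 0.21. In set 1 shATM (-0.29 to -0.25) and shATR (-0.25 to -0.21) lay near shCHK1, so the low level there was not particular to shCHK1. In set 2 shATM lay between -0.16 and -0.15, and shATR between 0.12 and 0.19. On chromosome 5 (600 genes) the median difference was 0.10 in set 1 and 0.00 in set 2. Of its genes, 57 were higher and 16 lower in set 1, beside 495 (3.61%) and 563 (4.1%) of all 13721 genes. On chromosome 8 (507 genes), 45 genes were higher and 17 lower in set 1, beside the same shares of all genes. There 2 neighbouring blocks of about 50 genes had medians of 0.23 and 0.17 in set 1, beside 0.00 and -0.03 in set 2. On chromosome 19 (942 genes), 28 genes were higher and 1 lower in set 2, beside 248 (1.81%) and 182 (1.33%) of all genes. Of the chromosome 19 genes, 37.8% lay below 0 in set 2 and 49.3% in set 1. The size of the medians of chromosomes 4 and 5 in set 1 depended on the normalization and the filter, and those of chromosomes 8 and 19 were not recomputed under the alternatives.

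Counts for the other pairs of knockdowns share arrays with this one and are given for scale. Same-sign and opposite-sign calls numbered 16 (0.117%) and 27 (0.197%) for shCHK1 minus shATR, 170 (1.24%) and 103 (0.751%) for shCHK1 minus shATM, 43 (0.313%) and 60 (0.437%) for shCHK2 minus shATR, 483 (3.52%) and 62 (0.452%) for shCHK2 minus shATM, and 55 (0.401%) and 31 (0.226%) for shATR minus shATM. The 67 and 53 of shCHK1 minus shCHK2 lie inside that range.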

How the data were processed

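Gene expression was measured on 30 Illumina bead arrays of MCF-10A cells, in 10 groups of 3, of which the 6 shCHK1 and 6 shCHK2 arrays were compared. The authors deposited a linear intensity per probe without normalization and, per the file headers, a detection p-value beside it. They also deposited normalized log2 values, used as an alternative. The software behind these values is not given in the sources used here.

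Background correction and quantile normalization used limma's neqc function (version 3.58.1, R 4.3.3; offset 16), with the background level derived from the detection p-values. Of 47231 probes, 26967 had a detection p under 0.05 on at least 3 arrays. The annotation at hand gave 1 symbol for 30113 probes, several for 8 and none for 17110, which were not named. Each gene was read from its brightest kept probe over all arrays (13721 genes). A gene was taken as detected where its compared probe had a detection p under 0.05.

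A limma model with a mean per group on all 30 arrays (20 residual degrees of freedom) gave the within-set differences, their average and the difference between sets, with two-sided p-values adjusted by Benjamini-Hochberg over all genes. A call needs an adjusted p under 0.05, and a call in both sets needs it in each. Differences are log2 shCHK1 minus shCHK2, and SE is the standard error of the difference. The number of arrays limits the precision. No fold was taken below the dimmest detected probe of an array where a group had no detected array.

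The genes compared and the lists were chosen with earlier results of these data known. Named are both targets, CCNE1, the 14 genes per direction with the largest smaller within-set difference among same-sign calls, the 6 such genes of opposite sign, and up to 5 members per list, same-sign calls first, by average difference. Motifs were searched in RefSeq promoter windows. Chromosome order came from RefSeq, whose coordinates were not matched to the array. On simulated data 33% of genes changed 1.5-fold and 84% changed 2-fold were called in both sets, and 0 of 13521 unchanged ones. The simulated arrays had independent noise around 1 mean per gene. They held no difference between sets and no array that stood apart, so these shares cannot be carried over to the measured arrays. Same-numbered replicates of shCHK1 and shCHK2 correlated at -0.021 to 0.013 in their deviations from group means, so the numbers were not taken as pairs. Alternatives covered normalization, filters, probe choice, array weights, the arrays in the fit, each replicate left out and a replicate block.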

Additional observations from a re-analysis of the deposited data

Results flagged for a closer look

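The test of the difference between sets (set 2 difference minus set 1 difference, shCHK1 minus shCHK2 in each) passed an adjusted p of 0.05 in limma for 47 of the genes named in the text. What separates the sets is not known. A value that uses a group not detected above background has no exact size, and the genes concerned are named.

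Among the genes with the same sign in both sets, the contrast was larger in set 1 for VCAN (2.27), THY1 (2.26), REPIN1 (1.27), KLK5 (1.06) and SLC2A3 (0.51), and larger in set 2 for NRCAM (0.70). THY1 was not detected in shCHK1 of set 1, so its value is that of the measured signals and no bound. CDH11 gave 1.27, but it was not detected in shCHK1 of either set, so the sizes of its 2 differences cannot be compared. Among the genes called with opposite signs the value was 3.27 for MMP9, 2.76 for UBE2D4, 2.66 for HS3ST2, 2.57 for UBE2L6, 2.44 for SRGN, 2.26 for SEMA3B and -2.68 for SUSD2. UBE2D4 and FN1 were not detected in shCHK1 of set 1 and shCHK2 of set 2, and SEMA3B not in shCHK2 of set 2, so for these the directions and the bounds of the report stand and the sizes do not. It was 1.73 for LCN2, 1.65 for FN1, 1.52 for ISG20, 1.43 for SERPINB7, 1.42 for FAP, 1.37 for KRT14, 0.99 for SAMD9, 0.90 for OAS3 and 0.82 for EGR1.

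Among cell cycle and p53 genes it was 1.05 for MDM2, 0.90 for CDKN2B, -0.46 for KIF20A and -0.68 for BAX. Among inflammatory and skin genes it was 1.38 for S100A7, 1.17 for PTGS2, 0.91 for KLK6, 0.88 for KLK7, 0.88 for PI3, 0.80 for SBSN and 0.51 for CCL20. In set 2 SBSN, KLK7 and MMP3 were detected on no array and KLK6 on 1, so their values cannot show that the sets differed. Antigen presentation genes gave 1.27 for PSMB9, 1.15 for HLA-B and 0.57 for TAPBP. Matrix and surface genes gave 2.32 for CDH2, 1.33 for S100A4, 1.02 for MMP3, 0.93 for MMP1, 0.90 for CD14 and 0.74 for LAMB3. Metabolic and stress genes gave 1.10 for PFKFB4, 1.02 for NDRG1, 0.85 for AKR1C2 and -0.74 for PHGDH.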

How the results depend on the processing

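None of the 67 genes called with the same sign in both sets changed the sign of its average difference under the alternatives tried. The sizes of the chromosome medians given below and the balance of higher and lower genes moved. Of the 67, 39 were higher, beside 32 of 68 with median scaling, 13 of 27 with the 12 arrays alone and 20 of 43 without replicate 3 of shCHK2 set 1. In set 1, 46.8% of calls were higher, beside 57.2% with median scaling. Of the alternatives for counts, targets and chromosome medians, 294 values stayed close to the reported one and 55 moved. Of those for single named genes, 2156 kept their side of the threshold, 151 missed it and 10 passed it newly. With the 12 arrays alone in the fit, 27 genes were called in both sets (13 higher, 14 lower), 25 with opposite signs, 611 in set 1, 236 in set 2, 490 on the average of the sets and 349 on the difference between sets; this fit has fewer residual degrees of freedom. Requiring a log2 difference of at least 1 in each set left 5 genes (1 higher, 4 lower) and 6 with opposite signs. On the authors' deposited log2 values 93 genes were called in both sets, 62 of them among the 67, and without background correction 92, with 62 shared. Under each of these, 10 listed genes had the same sign in both sets, beside 6; the cause was not tested.

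Leaving out 1 array at a time gave 41 to 59 genes in both sets, 20 to 34 higher, 16 to 25 lower, 36 to 50 with opposite signs, 529 to 1091 in set 1, 258 to 471 in set 2, 593 to 951 on the average, 472 to 608 on the difference between sets and 5 to 6 listed genes. The lowest of the higher counts (20) came without replicate 3 of shCHK1 set 1 or replicate 3 of shCHK2 set 1, and the lowest of the lower counts (16) without replicate 1 of shCHK1 set 2. Of the 67 genes, 18 were called with each of the 12 arrays left out. Averaged over sets, CHEK1 ran from -1.44 to -1.38 and CHEK2 from 0.60 to 0.71.

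The numbers of the replicates did not pair the samples. With the replicate block 52 genes were called in both sets, 51 of them among the 67, and 46 with opposite signs; EVI5L and SGPP2 were lost.

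The median of chromosome 4 in set 1, -0.09, was -0.05 on the authors' log2 values, -0.04 with median scaling, -0.05 without background correction, -0.12 with the strict detection filter, -0.04 with no filter and 0.01 after subtraction of chromosome medians, which removes it by construction. That of chromosome 5 in set 1, 0.10, was 0.06, 0.15, 0.06, 0.12, 0.05 and 0.00 under the same 6 alternatives. In set 2, where it was 0.00, it was -0.02 with median scaling, 0.01 with the strict filter, -0.01 with no filter and -0.01 after subtraction. Without single arrays the medians ran from -0.10 to -0.08 and -0.05 to -0.03 for chromosome 4 and from 0.10 to 0.12 and 0.00 to 0.02 for chromosome 5 (set 1, then set 2).

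Signal near background limits the fold of dim genes, which are given as bounds where a group was undetected, and 3 arrays per group limit small differences. The gene lists without replicate 3 of shCHK2 set 1 were an alternative chosen after seeing the data.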
